A study of Mus musculus with 2 samples.

Results

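Imprinted genes are transcribed mainly from the copy inherited from 1 parent. A list of 41 of them was followed here in RNA-seq of the embryonic mouse face. The genes are grouped by chromosome domain and by the parental copy known to be used. They were found by gene symbol among the 43346 genes with an Ensembl identifier. 40 of the 41 had a row, and the noncoding RNA gene Peg13 was not analysed here. The material was embryonic facial prominence of the mouse strain B6NCrl at embryonic day 15.5. Replicate 1 pooled 78 embryos and replicate 2 pooled 62 embryos, both of mixed sex and with the same donor label. Each library was made from 10 ng of RNA longer than 200 nucleotides with added spike-in RNA, and the assay is labelled total RNA-seq. There was 1 group and no treatment or second genotype, so values are levels and differences between the 2 libraries, with no test between conditions.

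At an imprinted locus the egg or the sperm leaves a methylation mark on a control region, and this mark decides in the embryo which parental copy is transcribed. Genes under 1 control region sit together in a domain, where a long noncoding RNA is often made from the copy on which the neighbouring coding genes are silent. Many paternally used genes promote growth of the embryo and many maternally used genes restrain it, with insulin-like growth factor 2 and its clearing receptor as the classic pair. Strain B6NCrl is inbred, so its parental copies carry the same sequence. The allele classes below are therefore textbook knowledge about each gene and were not measured in these libraries.

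Promoter windows were examined first because transcript shares are added up by annotated start below. 5′ ends were not sequenced, so the libraries do not show directly which start sites were used. RefSeq (GRCm38.p6) gave 51 windows for 34 of the imprinted genes, each running from 250 bases before to 50 after a start. The hexamer TGCCGC, which the zinc finger protein ZFP57 binds when it is methylated, was searched on both strands. It contains 1 CG pair and was searched with no other motif. It was present in 12 of the 51 windows (23.5%), against 3813 of all 32851 mouse windows (11.6%). By gene this was 11 of 34, against 3527 of all 27025 genes with a window. Windows of 1 gene can overlap and count separately, as the matching Mest windows that begin at 30737800 and 30737803 do. The windows of the imprinted genes also held more CG pairs, with a median of 14 against 7 for all windows, and had a median GC content of 58.3% against 52.7%. A match describes letters in the window and not a bound site. Shown here are the windows of the starts to which most transcripts of Mest, Grb10 and Plagl1 were assigned, and of a second Grb10 start. The shared start region of Peg3 and Usp29 and the window of Nap1l5, which matched the hexamer 2 times, are also shown. Capitals mark the hexamer on either strand, so that GCGGCA is the hexamer on the opposite strand. Sequences run 5′ to 3′ on the strand of the gene.
Mest chr6:30737800-30738099 (plus strand): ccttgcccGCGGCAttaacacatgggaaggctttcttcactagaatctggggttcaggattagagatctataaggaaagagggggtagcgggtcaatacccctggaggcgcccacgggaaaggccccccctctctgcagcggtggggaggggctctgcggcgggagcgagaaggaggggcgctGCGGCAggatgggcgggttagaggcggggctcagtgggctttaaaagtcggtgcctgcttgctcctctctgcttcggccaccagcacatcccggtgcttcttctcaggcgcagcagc
Grb10 chr11:12037371-12037670 (minus strand): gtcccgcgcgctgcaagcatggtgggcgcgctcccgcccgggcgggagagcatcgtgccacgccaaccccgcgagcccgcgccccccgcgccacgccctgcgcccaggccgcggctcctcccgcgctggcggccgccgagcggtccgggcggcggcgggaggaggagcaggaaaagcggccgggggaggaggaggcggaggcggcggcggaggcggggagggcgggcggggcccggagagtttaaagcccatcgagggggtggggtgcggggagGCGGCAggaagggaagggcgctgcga
Grb10 chr11:12027922-12028221 (minus strand): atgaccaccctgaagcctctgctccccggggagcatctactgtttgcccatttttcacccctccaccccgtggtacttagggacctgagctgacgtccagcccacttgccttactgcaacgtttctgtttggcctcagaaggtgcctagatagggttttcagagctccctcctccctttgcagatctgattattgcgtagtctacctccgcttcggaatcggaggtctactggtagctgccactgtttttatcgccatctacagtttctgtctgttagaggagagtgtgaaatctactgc
Plagl1 chr10:13090582-13090881 (plus strand): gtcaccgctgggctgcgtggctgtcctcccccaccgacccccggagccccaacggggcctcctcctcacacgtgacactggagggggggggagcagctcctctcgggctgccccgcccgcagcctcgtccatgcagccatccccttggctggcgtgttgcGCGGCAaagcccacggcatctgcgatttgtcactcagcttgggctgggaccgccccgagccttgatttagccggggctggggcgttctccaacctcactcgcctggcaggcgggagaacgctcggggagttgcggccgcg
Peg3 chr7:6730370-6730669 (minus strand): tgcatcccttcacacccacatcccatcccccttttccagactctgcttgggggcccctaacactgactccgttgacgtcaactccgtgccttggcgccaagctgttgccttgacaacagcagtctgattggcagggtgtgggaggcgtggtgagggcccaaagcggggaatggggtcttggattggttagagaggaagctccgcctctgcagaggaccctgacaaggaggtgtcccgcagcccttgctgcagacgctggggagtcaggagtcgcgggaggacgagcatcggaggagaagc
Nap1l5 chr6:58907077-58907376 (minus strand): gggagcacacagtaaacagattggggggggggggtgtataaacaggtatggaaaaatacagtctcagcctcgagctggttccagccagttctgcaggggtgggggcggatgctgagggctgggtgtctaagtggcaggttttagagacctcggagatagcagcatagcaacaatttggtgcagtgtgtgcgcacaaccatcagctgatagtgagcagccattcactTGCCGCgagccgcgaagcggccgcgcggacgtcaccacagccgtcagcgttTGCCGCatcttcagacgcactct
The Mest and Nap1l5 windows each held the hexamer 2 times and stood over genes at very different levels, since Mest averaged 1087 ± 51.3 TPM and Nap1l5 averaged 3.34 ± 0.0566 TPM (SD, n = 2, as for every mean below). TPM is a share of all transcripts in a library, corrected for transcript length. The major Grb10 window held it once, and the second Grb10 window and the Peg3 window did not contain these letters.

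Several of the imprinted noncoding RNAs are also precursors of microRNAs. These are shown because the genes that hold them, on either strand, ranged from the top to the bottom of the levels. RefSeq placed 14 hairpins with 26 mature microRNAs within Mirg on its own strand. It placed 6 hairpins with 11 mature microRNAs within Rtl1 on the opposite strand. On that strand the maternal copy is known to make an antisense transcript, and microRNAs from it direct the cutting of the Rtl1 message. On their own strand H19, Igf2, Mest, Usp29 and Rtl1 each held 1 hairpin, and Rian held 3. Meg3 held 1 hairpin and 3 mature microRNAs, of which mmu-miR-1906 lay outside that hairpin. Capitals mark the seed, bases 2 to 8, which pairs with target messages. The first 4 lie in H19, Igf2 and Mest, the next 5 opposite Rtl1, and the last 2 in Mirg.
mmu-miR-675-3p chr7:142577078-142577099 (minus strand): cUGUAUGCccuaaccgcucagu
mmu-miR-675-5p chr7:142577112-142577133 (minus strand): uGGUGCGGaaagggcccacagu
mmu-miR-483-3p chr7:142654932-142654952 (minus strand): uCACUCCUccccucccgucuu
mmu-miR-335-5p chr6:30741314-30741336 (plus strand): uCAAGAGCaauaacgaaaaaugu
mmu-miR-431-5p chr12:109590459-109590479 (plus strand): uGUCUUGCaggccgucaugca
mmu-miR-433-3p chr12:109591781-109591802 (plus strand): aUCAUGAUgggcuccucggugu
mmu-miR-127-3p chr12:109592888-109592909 (plus strand): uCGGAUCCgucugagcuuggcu
mmu-miR-434-3p chr12:109594565-109594586 (plus strand): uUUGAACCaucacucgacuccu
mmu-miR-136-5p chr12:109595331-109595352 (plus strand): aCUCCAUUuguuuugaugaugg
mmu-miR-453 chr12:109735669-109735692 (plus strand): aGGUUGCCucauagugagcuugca
mmu-miR-496a-5p chr12:109739132-109739152 (plus strand): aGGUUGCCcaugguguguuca
Among all mature microRNAs placed within the imprinted genes, the seed GGUUGCC of mmu-miR-453 and mmu-miR-496a-5p was the only one found 2 times. Mature microRNAs are far shorter than the RNA that entered the libraries, so none was measured. The levels below are those of the listed genes. No level is given for the transcript antisense to Rtl1, so the Rtl1 level does not stand for the microRNAs opposite it.

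The imprinted genes as a list were abundant, but the list was chosen with earlier results of these data known. The shares and medians below describe these genes and not imprinted genes in general. 39 of the 40 reached 1 TPM in each of the 2 libraries, against a background of 36.4% of all 43346 genes and 65.4% of the 21474 coding genes. Usp29 was the exception. Their median was 31.1 TPM in replicate 1 and 28.4 TPM in replicate 2. The mean of these medians, 29.7 ± 1.90 TPM, stood beside 0.135 TPM for all genes, 6.10 TPM for coding genes and 18.04 TPM for coding genes at 1 TPM or more. Together the 40 genes took 0.964% of all TPM in replicate 1 and 0.886% in replicate 2. 4 genes averaged 1000 TPM or more, 10 lay between 100 and 1000 TPM, 14 between 10 and 100 TPM, 11 between 1 and 10 TPM and 1 below 1 TPM. These levels are of the whole tissue, and fewer cells of a type and less RNA per cell cannot be told apart in them.

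The libraries carried the markers of their labelled tissue. All 8 facial mesenchyme markers were at 1 TPM or more, led by the homeobox gene Msx1 at 145 TPM in replicate 1 and 158 TPM in replicate 2. None of 8 placental trophoblast markers reached 1 TPM, 4 of them were at 0 in both libraries, and their sum was 0.18 TPM in replicate 1 and 0.41 TPM in replicate 2. None of 7 forebrain markers reached 1 TPM. The liver list had only Alb and the pituitary list only Pomc and Lhx3 at that level. Counts on mouse genes summed to 36048494 in replicate 1 and 36774513 in replicate 2, and 485349 and 462277 of them lay on the imprinted genes. The counts of the replicates differed beyond sampling noise, with a chi-square of 13.4 per degree of freedom over 18318 genes.

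**Figure D1:**
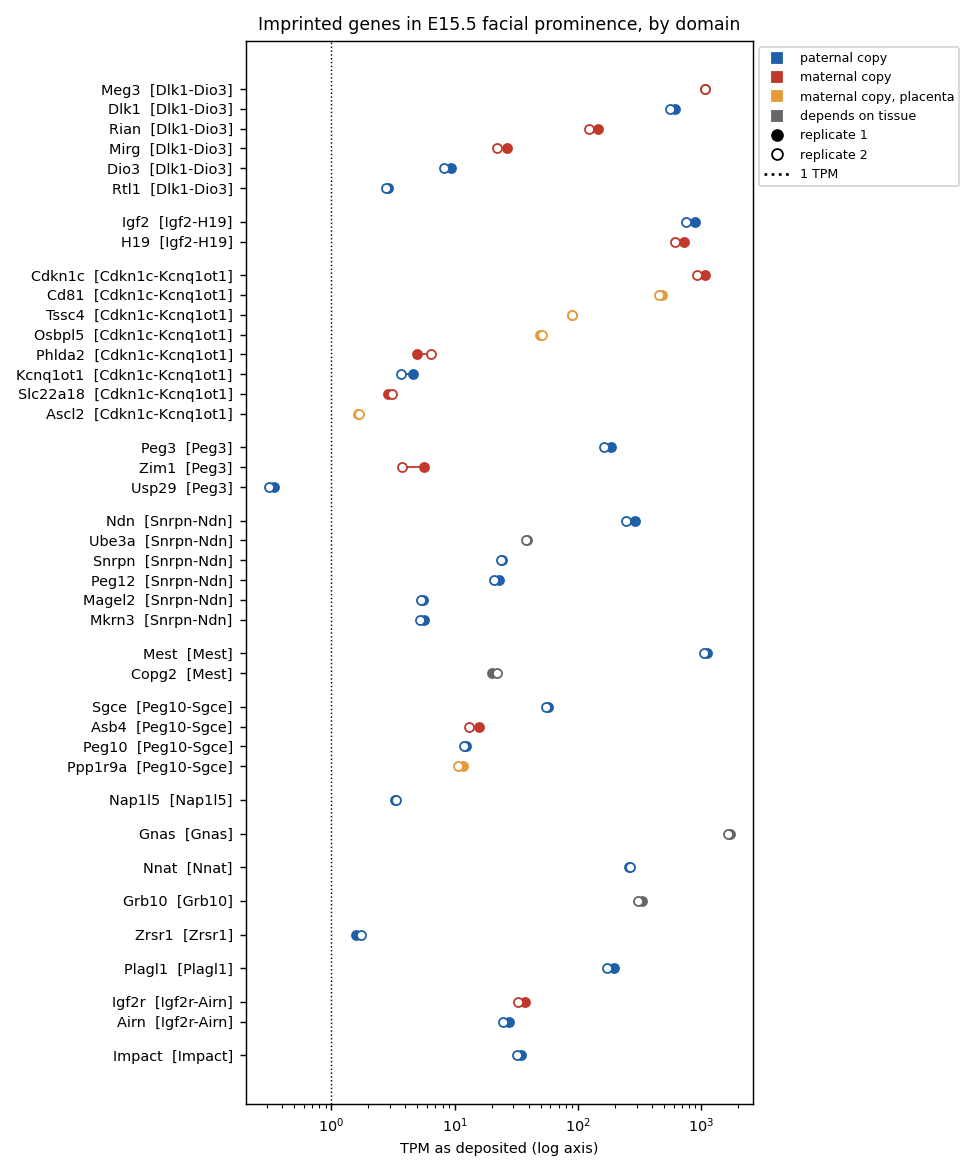
TPM as deposited (log axis) of the 40 imprinted genes, grouped by domain and ordered by mean level within each; filled circles are replicate 1, open circles replicate 2, and colours give the parental copy known to be used. Gnas stands highest at 1717 and 1647 TPM, the Dlk1-Dio3, Cdkn1c-Kcnq1ot1, Peg3 and Snrpn-Ndn domains each hold genes on both sides of 10 TPM, and only Usp29 lies left of the dotted line at 1 TPM.

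Gnas, which encodes the stimulatory G protein subunit that links receptors to adenylyl cyclase, was the highest of the list. It had 1717 TPM in replicate 1 and 1647 TPM in replicate 2 and ranked 28 among the 14052 coding genes at 1 TPM or more. The locus lies on chromosome 2 from 174284320 to 174346744 (GRCm38, plus strand). It has several starts that differ in their known imprinting, and the subunit itself is made from both copies in most tissues. Deposited transcript shares were added up over annotated starts within 500 bases of each other. The start of the G protein subunit at 174330006 took 86.1 ± 1.67% of the Gnas transcripts. The upstream start at 174284320, which makes the maternally used secretory protein NESP, took 8.41 ± 1.36%. This group amounted to 161 TPM in replicate 1 and 123 TPM in replicate 2, which in both libraries lay between the levels of the whole Peg3 and Rian genes. The noncoding first exon 1A at 174327570 took 2.54 ± 0.148%, and the start at 174297859 took 1.72 ± 0.219%. Both libraries gave this order of starts.

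The Dlk1-Dio3 domain on chromosome 12 took the largest share of the list, 19.9% of its summed TPM. Its maternally used noncoding RNA Meg3 had 1080.0 TPM in replicate 1 and 1079.7 TPM in replicate 2, and a gap of 32214 bases separates its annotated end from the start of Rian. Rian, which carries many small nucleolar RNAs, had 145 TPM in replicate 1 and 122 TPM in replicate 2. Mirg, the microRNA host at the far end, had 26.8 TPM in replicate 1 and 21.98 TPM in replicate 2. The gene levels of these 3 RNAs of 1 strand thus fell in their order along the domain. Rian over Meg3 was at a log2 ratio of -3.02 ± 0.18 and Mirg over Meg3 at -5.47 ± 0.20. Inside Rian and Mirg there was no such fall. In Rian the starts at 109603940 had 2.23 ± 0.424 TPM and those at 109646141 had 50.2 ± 10.1 TPM. In Mirg the starts at 109729764 had 1.27 ± 0.0566 TPM and those at 109747903 had 9.00 ± 1.70 TPM. Of the paternally used genes, Dlk1, a membrane protein of the Notch ligand family that restrains fat cell formation, had 616 TPM in replicate 1 and 562 TPM in replicate 2. Dio3, the deiodinase that inactivates thyroid hormone, had 9.36 and 8.26 TPM in replicates 1 and 2. Rtl1, derived from a retrotransposon and known from placental capillaries, had 2.89 and 2.80 TPM. The other paternal genes thus lay far below Dlk1, with Dio3 over Dlk1 at a log2 ratio of -6.06 ± 0.03 and Rtl1 lower still. Dlk1 stood below Meg3 in both libraries, at a log2 ratio of -0.88 ± 0.09.

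Dlk1 also stood far above its relative outside the domain. Dlk2 had 13.5 and 13.1 TPM in replicates 1 and 2, and Dlk1 over Dlk2 was 5.47 ± 0.06 on the log2 scale. Dio2, the deiodinase that activates thyroid hormone, had 2.20 and 1.53 TPM, so that Dio3 over Dio2 was 2.26 ± 0.24. The Dlk1 transcript Dlk1-205 made up 80.01 ± 1.17% of its gene. Meg3-205 made up 67.9 ± 3.08% of Meg3, followed by Meg3-211 at 13.0 ± 1.00% and Meg3-207 at 10.3 ± 0.559%.

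In the Igf2-H19 domain at the end of chromosome 7, both members were abundant. Igf2, the fetal growth factor used from the paternal copy, had 887 TPM in replicate 1 and 757 TPM in replicate 2. H19, the noncoding RNA used from the maternal copy, had 724 TPM in replicate 1 and 619 TPM in replicate 2. Both were higher in replicate 1, and their ratio was nearly the same in each library, at 0.29 ± 0.00 on the log2 scale for Igf2 over H19. The genes lie 72623 bases apart and share enhancers with the control region between them. Igf1, the growth factor of later life, had 62.2 and 49.1 TPM in replicates 1 and 2, 14.8-fold below Igf2. Igf2 over Igf1 was 3.89 ± 0.08 on the log2 scale.

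Igf2r encodes the receptor that binds IGF2 and carries it to lysosomes, and in the mouse it is used from the maternal copy. It had 37.3 TPM in replicate 1 and 32.7 TPM in replicate 2, so that Igf2 over Igf2r was 4.55 ± 0.03 on the log2 scale, or 23.5-fold. Its antisense RNA Airn, made from the paternal copy, had 27.5 and 24.5 TPM in replicates 1 and 2. Igf2r over Airn was only 0.43 ± 0.02 on the log2 scale, although Igf2r drew 7463 and 6821 counts and Airn drew 555 and 528. Airn models are much shorter than the primary transcript, since Airn-201 is 1113 nucleotides and covers a locus from 12741374 to 12815557 on chromosome 17. The strand setting of the counting is not given in the sources used here. Reads from Airn and Igf2r where they overlap, and from the other antisense pairs described, cannot be told apart with certainty.

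The Cdkn1c-Kcnq1ot1 domain beside Igf2 held 8 of the genes and spread over a wide range. Cdkn1c encodes the cell cycle inhibitor p57 and is used from the maternal copy. It had 1084 TPM in replicate 1 and 922 TPM in replicate 2, and ranked 81 among the coding genes at 1 TPM or more. Its relative Cdkn1b had 15.2 and 13.4 TPM in replicates 1 and 2, so that Cdkn1c over Cdkn1b was 6.14 ± 0.04 on the log2 scale, or 70.3-fold. The other maternal genes were low, with the solute carrier gene Slc22a18 at 2.87 and 3.13 TPM and Phlda2, which limits placental growth, at 4.93 and 6.45 TPM. Maternal genes of 1 domain thus differed by a log2 ratio of -7.47 ± 0.44 for Phlda2 over Cdkn1c and -8.38 ± 0.25 for Slc22a18 over Cdkn1c. Kcnq1ot1, the long paternal RNA that silences the domain on its own chromosome, had 4.64 and 3.67 TPM in replicates 1 and 2. Its model is 84395 nucleotides long, and these levels rested on 9647 and 7945 counts. Kcnq1ot1 exceeded its host Kcnq1, a potassium channel gene at 0.95 and 1.10 TPM, by 2.01 ± 0.39 on the log2 scale. That ratio was 0.72 with the authors' posterior mean TPM and 1.34 with 1 TPM added to each value, so its size is uncertain.

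4 further genes of this domain are used from the maternal copy mainly in placenta, and their other copy is used as well in most embryonic tissues. Cd81, a tetraspanin of the cell surface, had 486 TPM in replicate 1 and 452 TPM in replicate 2. Tssc4, a factor of spliceosome assembly in human cells, had 89.9 and 89.6 TPM, and the lipid transfer gene Osbpl5 had 49.6 and 51.4 TPM. Ascl2, a transcription factor that trophoblast cells need, had 1.64 and 1.68 TPM, and the trophoblast markers above were near 0. The lowest of the 4 was thus the gene whose known role is in trophoblast.

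Mest on chromosome 6, a paternally used gene for a protein of the hydrolase fold, had 1124 TPM in replicate 1 and 1051 TPM in replicate 2. Its neighbour Copg2, a coat protein gene of transport vesicles, had 20.2 and 22 TPM in replicates 1 and 2. Mest over Copg2 was 5.69 ± 0.15 on the log2 scale, or 51.5-fold. The 3′ ends of the 2 genes overlap by 912 bases on opposite strands, and expected counts of both were fractional (tolerance 0.005), which marks reads shared between gene models. The same held for Igf2, Meg3, Kcnq1ot1, Tssc4, Snrpn, Gnas and Zrsr1, or 9 of the 39 detected genes in all, against 30.4% of all genes detected. Copg1, the relative of Copg2 that is not imprinted, had 138 and 136 TPM, so that Copg2 over Copg1 was -2.70 ± 0.10 on the log2 scale. The start of the imprinted Mest transcript at 30738050, whose window is printed above, took 97.6 ± 0.424% of Mest transcripts.

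Grb10 encodes an adaptor that restrains insulin receptor signalling and had 332 TPM in replicate 1 and 310 TPM in replicate 2. Its use depends on tissue, since the mouse uses the maternal copy in most tissues from the major start and the paternal copy in neurons from starts further along the gene. The major start at 12037401 on chromosome 11 took 94.0 ± 0.870% of its transcripts. A second start further along the gene, at 12027971, took 3.08 ± 0.177%, which was 9.79 TPM in replicate 1 and 9.93 TPM in replicate 2. The group of starts up to 12026732 took 1.88 ± 0.884%. Grb14, an adaptor of the same family, had 8.17 and 9.86 TPM, and Grb10 over Grb14 was 5.16 ± 0.26 on the log2 scale. The paternally used zinc finger gene Plagl1 on chromosome 10 had 195 TPM in replicate 1 and 173 TPM in replicate 2, against 5.26 and 5.15 TPM for its relative Plag1. Plagl1 transcripts came to 98.6 ± 0.262% from the group of starts at 13090691 to 13091013.

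**Figure D2:**
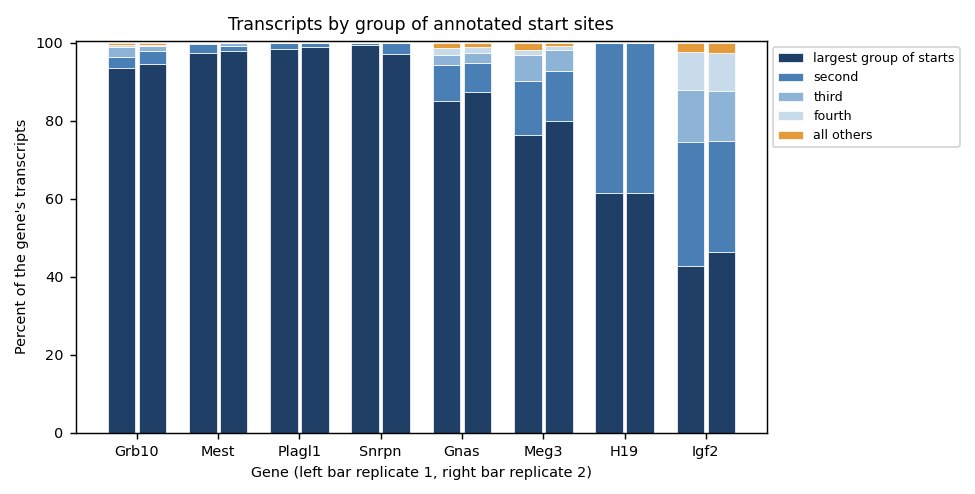
Percent of each gene's transcripts assigned to groups of annotated start sites within 500 bases of each other, for 8 imprinted genes, with replicate 1 as the left bar and replicate 2 as the right bar of each pair. Grb10, Mest, Plagl1 and Snrpn each have over 90% in 1 group in both libraries, while Igf2 has less than 50% in any group. The largest groups of Igf2 and H19 hold models that start inside the gene.

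No group of starts took 50% of the Igf2 transcripts. The 958-nucleotide model Igf2-208, which starts at 142653030 inside the gene and is annotated as a processed transcript without a reading frame, took 44.4 ± 2.51%. The outermost start at 142666816 took 30.2 ± 2.40%, that at 142657496 took 13.1 ± 0.424% and that at 142659489 took 9.81 ± 0.198%. Igf2-208 runs from its start to 142650843, and Igf2-203, the model of the outermost start, already ends at 142653756. These 2 models share no bases, so reads of 1 longer message could be divided between them. Their shares therefore do not show that different starts were used. H19 transcripts fell into 2 groups of starts. The group from 142576538 to 142577386, inside the gene, took 61.5 ± 0.156%. The group at the annotated 5′ end, from 142578095 to 142578143, took 38.5 ± 0.148%. Over the whole list, 12 genes had 1 annotated transcript and 28 had more. Of these 28, 10 had a leading transcript at 80% or more in both libraries and 6 had one under 50% in both. In 26 of the 28 the leading transcript was the same in both libraries. 5′ ends were not sequenced, so these shares rest on how the authors' program divided reads among models.

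The central chromosome 7 domain, whose paternal genes are lost in Prader-Willi syndrome in humans, held 6 of the genes. Ndn, a growth suppressor of the MAGE family, led it with 291 TPM in replicate 1 and 244 TPM in replicate 2. Its neighbour Magel2, of the same family, had 5.57 and 5.37 TPM, a log2 ratio of 5.61 ± 0.14 for Ndn over Magel2. Mkrn3, a ubiquitin ligase gene linked in humans to the timing of puberty, had 5.64 and 5.29 TPM, and Mkrn3 over its relative Mkrn1 was -3.16 ± 0.03. Peg12, of the family that binds the kinase GSK3, had 23.1 and 20.9 TPM in replicates 1 and 2. Ndn thus stood far above the other paternal genes of the domain. Snrpn, a splicing protein gene best known from neurons, had 24.1 and 23.8 TPM, and its relative Snrpb had 434 and 418 TPM. Snrpn over Snrpb was -4.15 ± 0.03 on the log2 scale. The start of Snrpn at 60005111 took 98.2 ± 1.58%, and the upstream start at 60140219 took 0.72% in replicate 1 and 2.96% in replicate 2. Ube3a, a ubiquitin ligase whose paternal copy is silent in neurons, had 39.1 and 37.9 TPM in replicates 1 and 2. Snrpn over Ube3a was -0.68 ± 0.02. Snurf, which overlaps Snrpn on the same strand, was counted as a separate gene at 17.8 and 15.8 TPM. Its level is in neither Snrpn ratio, so the side on which Snrpn over Ube3a falls depends on that split.

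Near the start of chromosome 7, Peg3 and Usp29 begin 147 bases apart on opposite strands. Peg3, a paternally used zinc finger gene, had 185 TPM in replicate 1 and 164 TPM in replicate 2. Usp29, of the deubiquitinase family and also used from the paternal copy, had 0.34 and 0.31 TPM on 21 and 20 counts. Peg3 over Usp29 was 9.07 ± 0.03 on the log2 scale, or 536-fold, and 7.05 with 1 TPM added to each value. The deposited Usp29 level rests on 1 model that starts at 6961160 and not at the shared start region. Zim1, a maternally used zinc finger gene next to Peg3, had 5.61 TPM in replicate 1 and 3.72 TPM in replicate 2. Peg3-201 made up 83.7 ± 1.78% of Peg3, and Peg3-203, annotated as subject to nonsense-mediated decay, made up 13.7 ± 2.14%.

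Sgce and Peg10 on chromosome 6 also start close together, 99 bases apart on opposite strands. Sgce, the epsilon member of the sarcoglycans, had 57.3 and 55.5 TPM in replicates 1 and 2. Peg10, a retrotransposon-derived gene that placenta needs, had 12.4 and 11.97 TPM. Peg10 over Sgce was -2.21 ± 0.00 on the log2 scale. In contrast to Peg3 and Usp29, this pair differed 4.63-fold only. Maternally used Asb4, a SOCS box gene, had 15.7 and 13.1 TPM, and the actin-binding neurabin gene Ppp1r9a had 11.7 and 10.6 TPM.

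Genes nested in a host or standing alone made up the rest. Nnat, a small membrane protein gene best known from brain, had 258 TPM in replicate 1 and 267 TPM in replicate 2. Its host Blcap, named for low expression in bladder cancer, had 45.9 and 42.6 TPM, a log2 ratio of 2.57 ± 0.11 for Nnat over Blcap. Nap1l5, a histone chaperone family gene, had 3.30 and 3.38 TPM and stood below its host Herc3 at -0.57 ± 0.15. It stood further below its relative Nap1l1, which had 132 and 136 TPM, at -5.33 ± 0.01. Zrsr1, a splicing factor gene, had 1.60 and 1.73 TPM inside Commd1, which had 274 and 261 TPM, a log2 ratio of -7.33 ± 0.13, or -6.66 with 1 TPM added to each value. Zrsr1 over its X-linked relative Zrsr2, which had 49.0 and 43.4 TPM, was -4.79 ± 0.20, or -4.14 with 1 TPM added. The 3 nested genes thus ranged from above to far below their hosts. Impact, which restrains the kinase GCN2 and is used from the paternal copy, had 34.6 and 32.3 TPM in replicates 1 and 2.

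**Figure D3:**
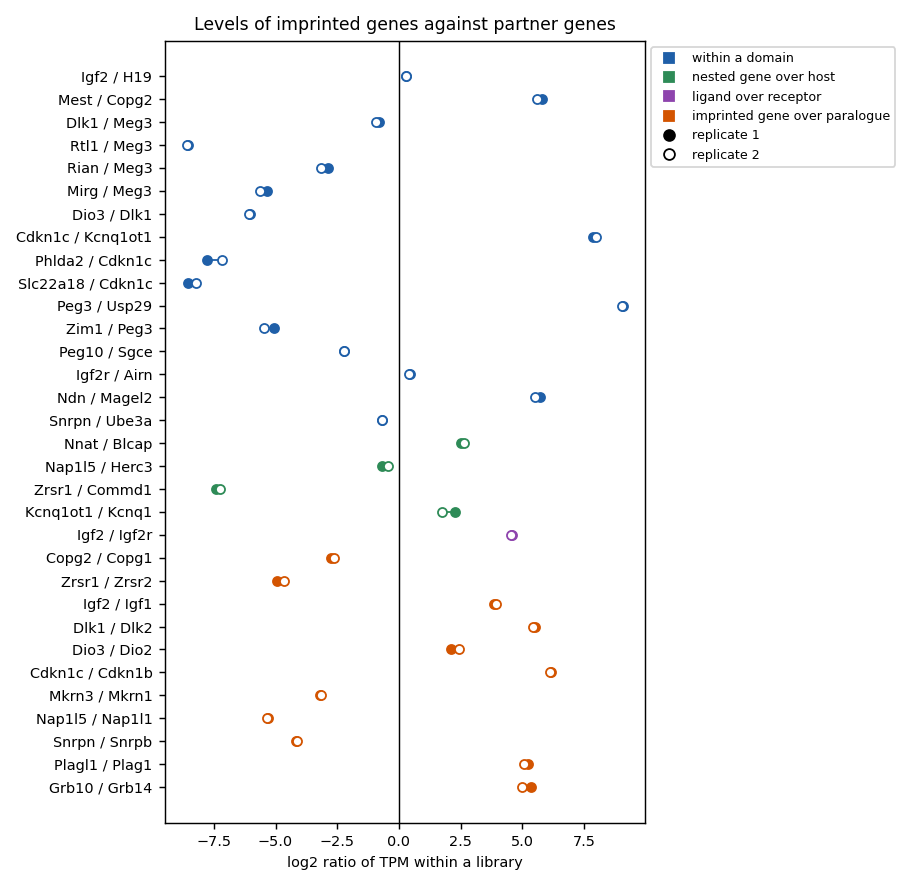
Log2 ratio of TPM between 2 genes of the same library for the 32 pairs compared, with replicate 1 as filled and replicate 2 as open circles; colours separate pairs within a domain, nested genes over hosts, ligand over receptor and imprinted genes over related genes elsewhere. Igf2 over H19 and Igf2r over Airn lie near 0 and Peg3 over Usp29, which rests on few Usp29 counts, lies farthest right at 9.07; no pair changes side between the libraries.

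By known parental copy, the classes overlapped over nearly the whole range. The 21 paternally used genes had a median of 24.0 ± 0.219 TPM, ran from 0.325 to 1087 TPM and took 38.8% of the summed TPM of the list. The 10 maternally used genes had a median of 29.7 ± 3.33 TPM, ran from 3 to 1079.9 TPM and took 32.2%. The 5 genes maternal mainly in placenta had a median of 50.5 ± 1.21 TPM, and the 4 whose use depends on tissue, Gnas among them, had 179.8 ± 8.45 TPM and took 22.3%. With so few genes a class, single genes set these sums. The 6 noncoding RNA genes ran from 4.16 to 1079.9 TPM and the 34 coding genes from 0.325 to 1682 TPM. Domains with 3 or more of the genes spanned wide ranges, least in the Sgce-Peg10 domain, from 11.2 to 56.4 TPM.

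Neighbours in the order of levels often could not be separated by their 2 values. The ranges of 14 of the 39 neighbouring pairs overlapped. Gnas stood clear of all others, while Mest, Meg3 and Cdkn1c formed a group whose ranges overlapped. Below them Igf2, H19 and Dlk1 did not overlap with each other, with 757 TPM as the lower Igf2 value against 724 TPM as the higher H19 value.

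Ratios between the replicates were taken from counts after TMM scaling, as log2 of replicate 1 over replicate 2. None of the 40 genes passed a 1.5-fold difference, against 9.08% of the 18318 genes that had at least 10 counts in each library. Genes with few counts raise that share: among the 13843 genes with at least 100 counts in each library it was 3.06%, beside 0 of the 36 imprinted genes with that many. The background at 10 counts was 4.31% for genes past it that were higher in replicate 1 and 4.78% for those higher in replicate 2. 32 of the 40 were higher in replicate 1, against 49.8% of all genes, and among those with 100 or more counts it was 31 of 36, against 50.3%. The shift was small, with a median of 0.10 over the imprinted genes. Zim1 at 0.57 and Kcnq1ot1 at 0.34 were highest, and Phlda2 at -0.38 was lowest, on 80 and 109 counts in replicates 1 and 2. Meg3 stood at 0.00. With 1 library on each side no test of these ratios exists.

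Other tissue markers moved between the replicates too. All 5 skeletal muscle markers were higher in replicate 1, with sums of 2639.8 TPM in replicate 1 and 2001 TPM in replicate 2. All 5 red blood cell markers were higher in replicate 1, at sums of 14719 TPM in replicate 1 and 11013 TPM in replicate 2. All 4 cartilage markers were lower in replicate 1, with sums of 260.2 TPM in replicate 1 and 454 TPM in replicate 2. Of the facial mesenchyme markers 1 of 8 was higher in replicate 1, and their sums were 485 TPM in replicate 1 and 545 TPM in replicate 2. The spike-in share was 2.91% of counts in replicate 1 and 4.59% in replicate 2. The part of these differences in the shift of the imprinted genes was not tested.

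**Figure D4:**
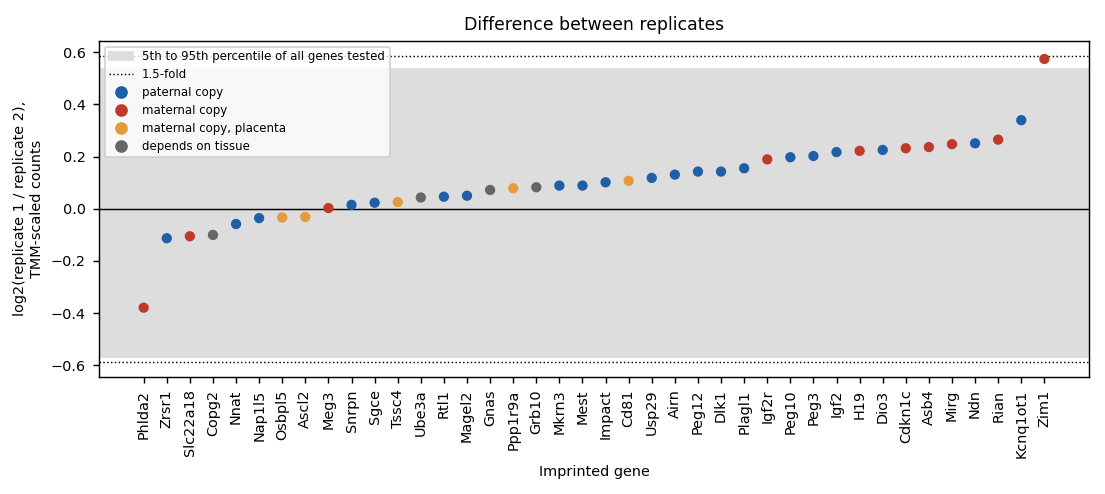
Log2 of replicate 1 over replicate 2 for each of the 40 imprinted genes after TMM scaling of counts, in order of the ratio and coloured by the parental copy known to be used; the grey band holds the 5th to 95th percentile of all genes, -0.57 to 0.54, and dotted lines mark 1.5-fold. 32 points lie above 0, none lies past the dotted lines, and Zim1 at 0.57 is the only one outside the band. For genes with at least 100 counts in each library the same percentiles were -0.34 and 0.30, and of the 36 imprinted genes with that many Zim1 and Kcnq1ot1 lie outside them.

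A wider list of 45 other genes reported as imprinted in mouse, 41 of them with a row, was less abundant. 32 of the 41 reached 1 TPM in each library, against 36.4% of all genes and 65.4% of coding genes. The median of the 41 was 10.1 TPM. Its most abundant genes were Dcn, the matrix proteoglycan decorin, at 563 ± 15.1 TPM, and Commd1 at 268 ± 9.16 TPM. Nap1l4 followed at 153 ± 4.21 TPM, H13 at 106 ± 2.50 TPM, Zfp64 at 45.7 ± 1.21 TPM and Blcap at 44.3 ± 2.28 TPM. Dcn is known to be imprinted in mouse placenta. Unlike the 40 genes above, 19 of the 38 with enough counts were higher in replicate 1, against 49.8% of all genes. The difference between the lists was not tested.

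Of 8 genes that keep or read imprints, 7 reached 1 TPM in each library, against 36.4% of all genes and 65.4% of coding genes. Trim28, the corepressor that ZFP57 recruits, had 236 TPM in replicate 1 and 222 TPM in replicate 2. Zfp57 itself had 42.1 and 49.0 TPM, and Zfp445, which shares its role, had 29.9 and 30.3 TPM. Zfp57 stood above the median of the imprinted genes in both libraries, and Zfp445 stood close to it. Ctcf, the insulator protein of the Igf2-H19 control region, had 93.7 and 94.6 TPM. Dnmt1, which copies methylation at replication, had 53.9 and 53.4 TPM, and its partner Uhrf1 had 90.6 and 86.5 TPM. Smchd1, a chromosomal protein that silences some imprinted clusters, had 33.2 and 30.8 TPM in replicates 1 and 2. Dppa3, which guards imprints in the egg and early embryo, had 0.07 TPM in replicate 1 and was at 0 in replicate 2.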

How the data were processed

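Per the submitters' processing notes, the 2 total RNA-seq libraries were aligned by the authors to mouse assembly mm10 with annotation M4. Strandedness, aligner and counting program were not given in the sources used here, nor their versions. The authors deposited, for every gene and transcript, an expected count and a TPM, and for every transcript its percent of the gene, per the file headers. Their posterior mean TPM was an alternative, and deposited credibility bounds of TPM, recorded as a score, were not printed. Spike-ins and numbered sequences are included in the TPM total, so spike-ins lower the TPM of genes. 1 read on a transcript of 1 kb was worth 0.0450 TPM in replicate 1 and 0.0432 TPM in replicate 2. All expected counts, spike-ins included, summed to 37128010 in replicate 1 and 38543623 in replicate 2.

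Symbols were taken from GENCODE M21 (GRCm38), where 42462 of 43346 identifiers were found. For ratios between libraries, expected counts were rounded and scaled by TMM (edgeR 4.0.16, R 4.3.3), with factors of 0.989 and 1.01 for replicates 1 and 2, a prior count of 2 and a minimum of 10 counts in each library. This step was tested on simulated data. DESeq2 1.42.0 size factors and spike-in scaling were alternatives, and Python 3.11.15 did the rest. A gene was called detected at 1 TPM or more in each library. With 1 group of 2 libraries there is no p-value. Nothing says that the pools came from separate litters, so the SD covers these 2 samples only. The genes named are the members, the fixed pairs, the imprint keeping genes, the 6 most abundant of the wider list and leading transcripts. The members and lists were chosen with earlier results of these data known.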

Additional observations from a re-analysis of the deposited data

How the results depend on the processing

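No paired analysis was possible because the 2 libraries form 1 group. The count of 39 genes at 1 TPM or more was the same with the posterior mean TPM, with TPM rescaled over mouse genes and at 0.5 TPM, and was 31 at 5 TPM. Rescaling TPM over mouse genes, which takes the spike-ins out of the total, raised the median of the list to 32.4 TPM, its share of transcripts to 1.01% and the paternal median to 26.2 TPM. The posterior mean TPM gave a paternal median of 23.4 TPM. Counting the placental genes as maternal gave a maternal median of 35.0 TPM. Leaving out each replicate in turn gave medians of 28.4 to 31.1 TPM for the list, 23.8 to 24.1 TPM for paternal genes and 27.3 to 32.0 TPM for maternal genes, and a share of 0.886% to 0.964%. None of the 32 pair ratios changed sign with the posterior mean TPM, with 1 TPM added to each value or without either replicate; with 1 TPM added, Peg3 over Usp29 was 7.05 on the log2 scale and no longer the widest, since Rtl1 over Meg3 was then -8.14. Kcnq1ot1 over Kcnq1 was 0.72 with the posterior mean TPM and 1.34 with 1 TPM added.

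The ratios between replicates depended on scaling. DESeq2 size factors left 31 of 40 genes higher in replicate 1 and 0 past 1.5-fold. Scaling to the spike-ins made all 40 higher in replicate 1 and put 36 past 1.5-fold, but it moved the median of all genes to 0.65 and put 12008 of 18318 past 1.5-fold; the median of the imprinted genes was then 0.74. Starts joined within 100 bases, an alternative chosen after seeing the data, put 96.0% of Plagl1 transcripts in its largest group and left Grb10, Gnas, Mest, Igf2 and Snrpn as given, and starts joined within 1000 bases moved none of the 6. With 2 pools, differences smaller than their spread, such as that between Mest and Meg3, were not resolved, and Usp29 on 21 and 20 counts is limited by counting error.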
